A study of Mus musculus with 10 samples.

Results

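The genes described here encode 33 subunits of the mouse Polycomb repressive complexes, chosen by symbol from the known make-up of those complexes, out of 54752 genes in the deposited files. They comprise 11 genes of PRC2, 2 E3 ligases shared by every form of PRC1, 11 genes of canonical PRC1 and 9 of variant PRC1, and all 33 were matched and passed the filter on low counts. RNA was sequenced from primary mouse embryonic fibroblasts, isolated from E13.5 embryos of 129S4/SvJaeJ mothers and CBA/CaJ × C57BL/6J fathers with an Oct4-GFP transgene, and used at passage 2. In all 5 groups the cells had been exposed for 48 hours to retroviruses carrying Jdp2, Sall4, Esrrb and Glis1, and they were then kept in iCD3, a medium for reprogramming towards pluripotency, for 0, 1, 3, 5 or 7 days (D0, D1, D3, D5 and D7). D0 is therefore already infected, and no uninfected fibroblasts were analysed here. Each day had 2 libraries, which gives 10 in all.

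Polycomb proteins keep developmental genes silent. PRC2, built on the methyltransferase Ezh2 or Ezh1 with Eed and Suz12, methylates a lysine in the tail of histone H3, and its accessory proteins (Mtf2, Phf1 and Phf19 in one form, Jarid2 and Aebp2 in the other) direct it to chromatin. PRC1 attaches ubiquitin to histone H2A through Ring1 or Rnf2. Canonical PRC1 carries a chromobox (Cbx) protein that reads the PRC2 mark, a polyhomeotic (Phc) protein and Pcgf2 or Bmi1, whereas variant PRC1 carries Rybp or Yaf2 in place of the Cbx protein, with other Pcgf proteins and partners such as Kdm2b. In embryonic stem cells Cbx7 is the main Cbx protein, and Jarid2 and Mtf2 are abundant PRC2 partners.

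Promoter sequence was at hand for 29 of the 33 genes (42 windows of 300 bases, 250 before to 50 after a transcription start, RefSeq, build GRCm38.p6), and 4 are shown: Jarid2 and Cbx7 had the largest rises from D0 to D7, Cbx6 is the neighbour of Cbx7, and Phc1 also rose but has few CG sites. CG dinucleotides, the sites that CpG methylation and CxxC-domain proteins such as Kdm2b act on, are in capitals. Cbx7 lies at chr15:79932597-79932896 (minus strand), its neighbour Cbx6 at chr15:79834284-79834583 (minus strand), the upstream Jarid2 start at chr13:44730524-44730823 (plus strand) and Phc1 at chr6:122340178-122340477 (minus strand).
Cbx7: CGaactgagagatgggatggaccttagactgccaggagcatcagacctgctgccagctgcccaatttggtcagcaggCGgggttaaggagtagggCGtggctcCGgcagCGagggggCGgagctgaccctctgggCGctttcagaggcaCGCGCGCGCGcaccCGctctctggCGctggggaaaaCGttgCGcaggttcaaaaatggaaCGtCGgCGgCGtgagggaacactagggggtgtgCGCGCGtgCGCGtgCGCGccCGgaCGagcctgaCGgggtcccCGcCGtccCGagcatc
Cbx6: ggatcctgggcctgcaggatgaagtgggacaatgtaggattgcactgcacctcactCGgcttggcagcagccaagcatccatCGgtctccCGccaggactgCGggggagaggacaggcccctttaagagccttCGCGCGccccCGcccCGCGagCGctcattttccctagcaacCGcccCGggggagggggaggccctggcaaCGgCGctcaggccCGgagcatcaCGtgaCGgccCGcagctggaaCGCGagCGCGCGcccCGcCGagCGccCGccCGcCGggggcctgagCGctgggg
Jarid2: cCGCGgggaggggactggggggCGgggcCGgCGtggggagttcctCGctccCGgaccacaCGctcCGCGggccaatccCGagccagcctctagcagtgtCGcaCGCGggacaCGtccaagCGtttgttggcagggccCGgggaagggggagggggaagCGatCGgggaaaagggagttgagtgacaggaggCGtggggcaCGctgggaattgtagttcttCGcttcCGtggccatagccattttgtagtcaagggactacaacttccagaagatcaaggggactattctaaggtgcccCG
Phc1: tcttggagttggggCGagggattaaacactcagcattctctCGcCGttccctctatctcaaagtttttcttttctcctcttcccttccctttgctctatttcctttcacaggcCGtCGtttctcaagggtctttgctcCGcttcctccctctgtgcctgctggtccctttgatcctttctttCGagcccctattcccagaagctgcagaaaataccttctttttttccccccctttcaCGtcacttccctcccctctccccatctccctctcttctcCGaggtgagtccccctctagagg
The Cbx7, Cbx6 and Jarid2 windows held 33, 31 and 24 CG sites and the Phc1 window held 9. An observed to expected CpG ratio above 0.6 was found in 33 of the 42 windows (78.6%), beside 70.3% of the windows of all tested genes and 35.8% of all 32851 windows. Motifs were searched by their letters on both strands. The ESRRB element AAGGTCA was in 0 of the 42 windows (4.72% of all windows), and the octamer ATTTGCAT was in 1, that of Phc2 (1.74% of all). The AP-1 elements TGACTCA and TGACGTCA were in 1 window each, of Pcgf3 (5.20% of all) and of Cbx8 (1.79% of all). The E2F element TTTCCCGC was in 2 (4.76%, beside 1.07% of all), those of Suz12 and Phf19. These motif shares are over all windows, of which fewer are rich in CpG than of the 42 (35.8% against 78.6%). Shares over the windows of tested genes are not given for motifs. The counts rest on at most 2 windows each, so no excess or lack can be read from them. A match is a description of the letters in the window only.

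Library totals were 2176457 to 4335931 expected counts in the replicate 1 libraries and 1329377 to 1492105 in the replicate 2 libraries, so that 3 counts equal 0.692 to 1.38 CPM (counts scaled to library size) in the first and 2.01 to 2.26 in the second. The summed level of 10 fibroblast markers was 9770 to 10654 CPM at D0 and 487 to 721 at D7. That of 10 pluripotency markers went from 7.83 to 15.0 at D0 (3 of the 10, Tdgf1, Lin28a and Dnmt3l, at 0 in both libraries) to 1360 to 1779 at D7. Of 6 endothelial markers, 5 rose between D0 and D7 in the edgeR test described below, which called 9.15% of all tested genes higher. The 6 summed to 18.1 to 24.0 CPM at D0 (Tie1 and Esam at 0 in both libraries). At D7 they summed to 130 to 133 CPM, of which Pecam1 gave 69.0 and 67.0. Sums of 6 macrophage markers were at most 20.1 CPM at D0 and 6.57 to 8.48 at D7. The 8 proliferation markers summed to 1762 to 1883 CPM at D0, 908 to 1308 at D3 and 2209 to 2426 at D7. In these bulk samples a change in the share of cells of a type and a change in RNA per cell cannot be told apart, and the part of these marker changes in the results below was not tested.

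Between D0 and D7, 7 of the 33 Polycomb genes rose and 2 fell in edgeR's quasi-likelihood test (adjusted p below 0.05 over 12752 genes), where 17.9% of all tested genes were called, 9.15% higher and 8.71% lower. Jarid2, Mtf2 and Ezh1 of PRC2, Cbx2, Cbx7 and Phc1 of canonical PRC1 and Kdm2b of variant PRC1 rose. Bmi1 of canonical PRC1 and Yaf2 of variant PRC1 fell. The median log2 change was 0.70 over the 33 genes and 0.06 over all tested genes. By complex it was 0.86 in PRC2 (10 genes positive, 1 negative), 0.79 in canonical PRC1 (6 and 5) and 0.58 in variant PRC1 (6 and 3). The canonical PRC1 median was the value of Cbx8 (SE 0.92, adjusted p = 0.617), a gene near 3 counts in several libraries. That median was 0.55 with the replicate number as a block. The medians of the complexes were not tested against each other. With the replicate number as a block, 18 of the 33 were called, 13 higher and 5 lower, where 28.5% of all genes were called, 14.8% higher and 13.7% lower. Without D0 replicate 1, without D7 replicate 1 and without D0 replicate 2 the count was 2, 3 and 4, and the share of all tested genes called was then 7.12%, 6.53% and 7.25%. The highest daily mean was at D7 for 16 of the 33 genes, and the lowest at D0 for 12. These counts of extreme days are given without a share over all tested genes.

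Single steps gave fewer calls. Few calls at the steps into and out of D5 do not show that little changed there. The 2 D5 libraries lay far apart for some genes, such as Suz12 (292 and 90.5 CPM) and Mtf2 (217 and 64.2). For others, such as Kdm2b (160 and 152), they lay close. From D0 to D1, 2 of the 33 rose, Kdm2b and Phf19 (4.52% of all genes called, 2.41% as higher). The count was 0 without D0 replicate 1 (0.932% of all genes) and 1 with limma on log2(TPM + 1) values (3.71% of all genes), and 3 with the block, which added Jarid2 as higher (10.6% of all genes, 5.27% as higher). From D1 to D3 edgeR called 0 (1 at an unadjusted p below 0.05), where 0.0549% of all genes were called, and DESeq2 called 0 (1% of all genes). From D3 to D5 edgeR called 0 of the 33 (9 at an unadjusted p below 0.05; 0.0706% of all genes), DESeq2 called 1, Cbx7 (1.18% of all genes), and with the block Ezh2, Mtf2, Cbx7 and Pcgf6 rose (3.3% of all genes, 2.26% as higher). From D5 to D7 edgeR called 0 (0 at an unadjusted p below 0.05; 0% of all genes), and DESeq2 called 0 (0.204% of all genes). Over longer spans, D3 against D0 gave 2 higher, Jarid2 and Kdm2b (12.1% of all genes, 6.21% as higher), and 5 with the block (21.5% of all genes, 10.5% as higher and 11% as lower), which added Pcgf2 as higher and Yaf2 and Bcor as lower. D7 against D3 gave 3 higher, Ezh1, Ezh2 and Cbx7 (5.37% of all genes, 3.07% as higher), and 13 higher with the block (18.4% of all genes, 9.5% as higher). The block added Suz12, Rbbp4, Mtf2, Jarid2, Rnf2, Phc1, Scml2, Pcgf5, Pcgf6 and Bcor. The spans share libraries and are not independent. A test for any difference among the days called 9 of the 33 (19.1% of all genes), and 21 with the block (34.9%).

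**Figure D1:**
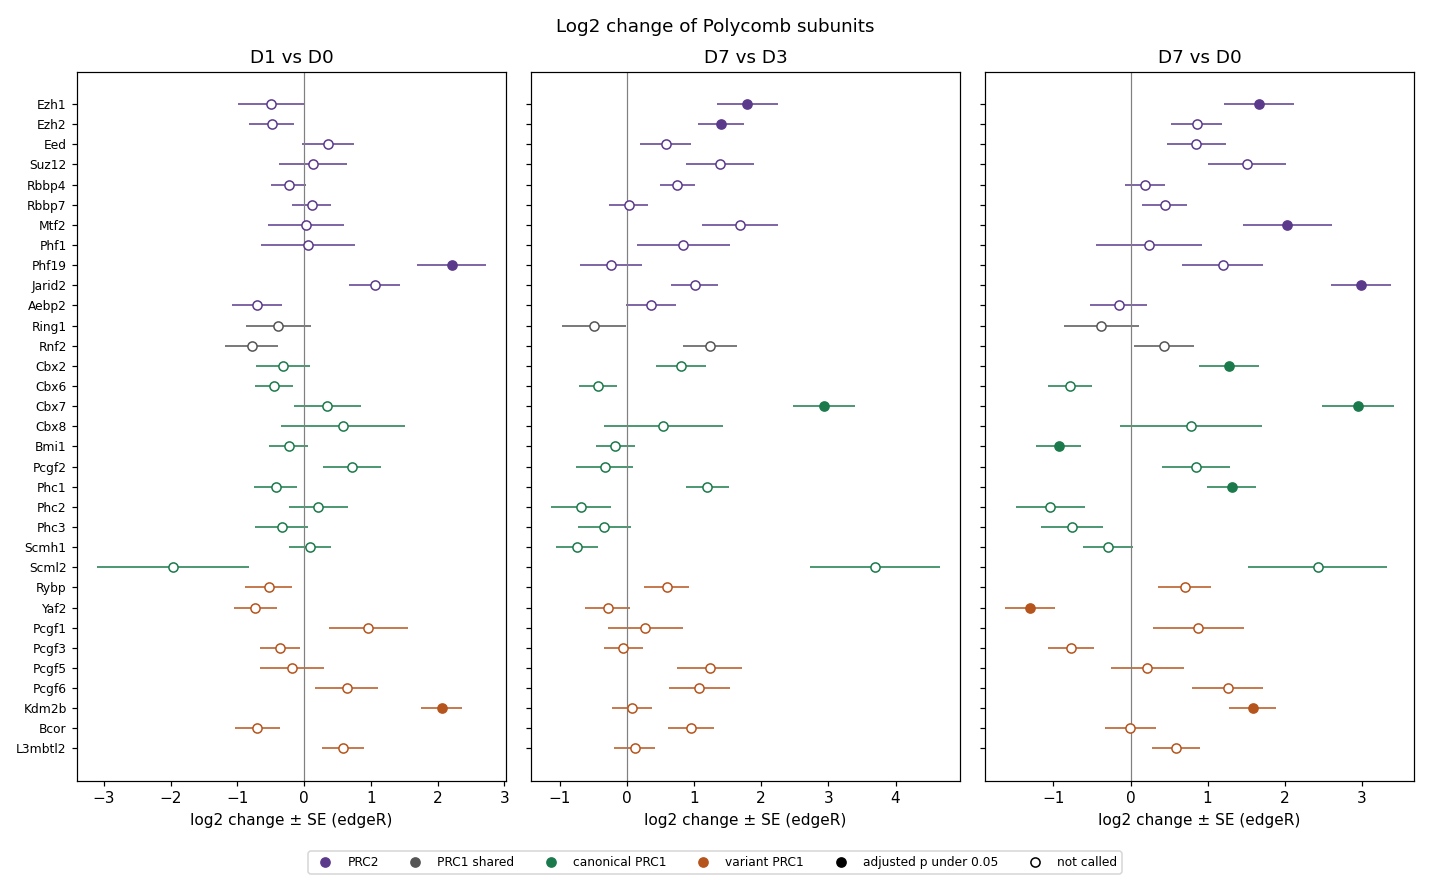
Log2 change of each of the 33 genes with its SE (horizontal axis), grouped by complex, for D1 against D0, D7 against D3 and D7 against D0; filled points passed the adjusted p threshold in edgeR. The filled points at D7 against D0 are 7 to the right of 0 and 2 to the left, with Jarid2 at 2.99 and Cbx7 at 2.95 farthest out.

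In PRC2 the accessory genes Jarid2 and Mtf2 and the catalytic gene Ezh1 rose between D0 and D7, 3 of 11 (6 of 11 with the block, which added Ezh2, Eed and Suz12), and none of the 11 fell. Of all tested genes 9.15% were called higher and 8.71% lower, and 14.8% and 13.7% with the block. In 9 of the 11 both D7 libraries lay above both D0 libraries and in 0 both lay below, where 34% of all tested genes lay above and 30.4% below. Jarid2, which binds PRC2 and stimulates its activity at target genes, was at 29.4 and 30.7 CPM at D0 (replicates 1 and 2), 74.3 and 49.8 at D1, 129 and 108 at D3, 237 and 135 at D5, and 293 and 184 at D7. Every later library lay above both D0 libraries, and each day's mean was above that of the day before. Its log2 change was 1.99 (SE 0.38, adjusted p = 0.00685) from D0 to D3 and 2.99 (SE 0.39, adjusted p = 0.000668) from D0 to D7. The D7 call held under each of the 15 other settings tried. The D3 call ended without D0 replicate 1 (adjusted p = 0.0717) or D0 replicate 2 (adjusted p = 0.0611). From D0 to D1 the log2 change of Jarid2 was 1.06 (adjusted p = 0.164, and 0.0298 with the block).

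Mtf2, a Polycomb-like protein that binds unmethylated CpG-rich DNA, was at 54.3 and 36.7 CPM at D0, 59.3 and 32.7 at D1, 74.0 and 41.0 at D3, 217 and 64.2 at D5, and 248 and 126 at D7. The D0 to D3 libraries overlapped, replicate 1 was the higher on every day, and both D7 libraries stood above all of D0 to D3. The D7 against D0 log2 change was 2.03 (SE 0.58, adjusted p = 0.0331). It lost its call without D0 replicate 1, D0 replicate 2 or D7 replicate 1 (adjusted p = 0.11, 0.193 and 0.227) and with limma on log2(TPM + 1) (0.0948). Mtf2 shares 2639 bases with Tmed5 on the opposite strand, and no source used here says whether counting used strand. Tmed5 had a mean of 108 CPM at D0 and 30.5 CPM at D7, the opposite direction.

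Of the other Polycomb-like genes, Phf19 was at 5.87 and 2.99 CPM at D0, 23.4 and 19.2 at D1, 14.0 and 10.4 at D3, 10.1 and 18.6 at D5, and 11.1 and 9.86 at D7. Both D1 libraries were above every library of the other days. The D1 against D0 log2 change was 2.21 (SE 0.51, adjusted p = 0.034), and it lost its call in 9 of 15 other settings. Those were the fit to TPM (adjusted p = 0.652) and the fits without D0 replicate 1 or 2 (0.115 and 0.255), D1 replicate 1 or 2 (0.204 and 0.0798), D3 replicate 1 or 2 (0.0501 and 0.0503) and D7 replicate 1 or 2 (0.0521 and 0.0522). Phf1 stayed between 3.73 and 19.1 CPM over the 10 libraries, with overlapping days. By deposited TPM, a per-length level, Mtf2 made up 67.4% ± 3.35 (SD, n = 2) of the 3 genes' sum at D0 and 86.9% ± 8.02 at D7.

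Ezh2, the main methyltransferase of dividing cells, was at 81.7 and 64.4 CPM at D0, 53.0 and 51.9 at D1, 64.1 and 35.0 at D3, 126 and 94.3 at D5, and 148 and 118 at D7. The D5 and D7 libraries were above all those of D0 to D3. The log2 change was 1.40 (SE 0.34, adjusted p = 0.0399) for D7 against D3 and 0.86 (SE 0.33, adjusted p = 0.0998, and 0.0188 with the block) for D7 against D0. The D7 against D3 call ended in each of 8 fits that left out a library of D0, D1, D3 or D7, with adjusted p = 0.0643 and 0.0654 (D0 replicates 1 and 2), 0.0592 and 0.0597 (D1), 0.0607 and 0.233 (D3) and 0.254 and 0.0998 (D7). Of the 8 proliferation markers, 2 rose from D3 to D7, and all 8 with the block. Of all tested genes 3.07% were called higher over this span, and 9.5% with the block. The part of proliferation in the Ezh2 result was not tested.

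Ezh1, the less active paralog found mostly in resting cells, was at 9.79 and 9.73 CPM at D0, 5.78 and 8.54 at D1, 6.15 and 12.7 at D3, 23.7 and 17.0 at D5, and 36.5 and 25.0 at D7. As for Ezh2, its D5 and D7 libraries were above those of every earlier day. The log2 change was 1.67 (SE 0.46, adjusted p = 0.0287) for D7 against D0 and 1.79 (SE 0.46, adjusted p = 0.0481) for D7 against D3. The first ended without D0 replicate 1 (adjusted p = 0.14), D0 replicate 2 (0.137) or D7 replicate 1 (0.218) and with limma on TPM (0.161). The second ended in 10 of 15 other settings, including every fit without a D0, D1, D3 or D7 library (adjusted p = 0.075 and 0.0757 for D0 replicates 1 and 2, 0.0576 and 0.0599 for D1, 0.211 and 0.131 for D3, 0.318 and 0.1 for D7), limma on TPM (0.168) and DESeq2 (0.0504). By TPM, Ezh2 made up 91.5% ± 3.76 of the pair's sum at D0 and 90.5% ± 3.25 at D7 (n = 2 each), a difference smaller than the spread between replicates. With 1 mean effective length per gene, its mean share was 92.2% at D0 and 87.4% at D7.

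Of the core subunits, edgeR with all libraries and no block called none between D0 and D7. Suz12, the scaffold of PRC2, was at 111 and 79.3 CPM at D0 and 338 and 205 at D7, with no overlap; its log2 change of 1.51 (SE 0.51) had an adjusted p of 0.0635, and 0.00297 with the block. Suz12 was also called with DESeq2 (adjusted p = 0.0127), with no filter (0.000409) and without D5 replicate 1 or 2 (0.0113 and 0.0125). Eed, which binds the methyl mark, had a log2 change of 0.86 (adjusted p = 0.156, and 0.0283 with the block). The histone chaperones Rbbp4 and Rbbp7, which also serve other complexes, had log2 changes of 0.19 and 0.44, and Aebp2 had one of -0.15, with adjusted p = 0.672, 0.343 and 0.826. For D7 against D3, Rbbp4 had a log2 change of 0.75 (adjusted p = 0.115, and 0.0336 with the block). Ezh1 and Ezh2 are similar in sequence, and so are Rbbp4 and Rbbp7. The expected counts of Ezh1 and Ezh2 were whole numbers in all 10 libraries, so no split of reads between them was seen. Rbbp4 and Rbbp7 had some counts just off whole numbers (490.95 and 604.99 in D0 replicate 1), so the authors' counting could have split some of their reads.

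**Figure D2:**
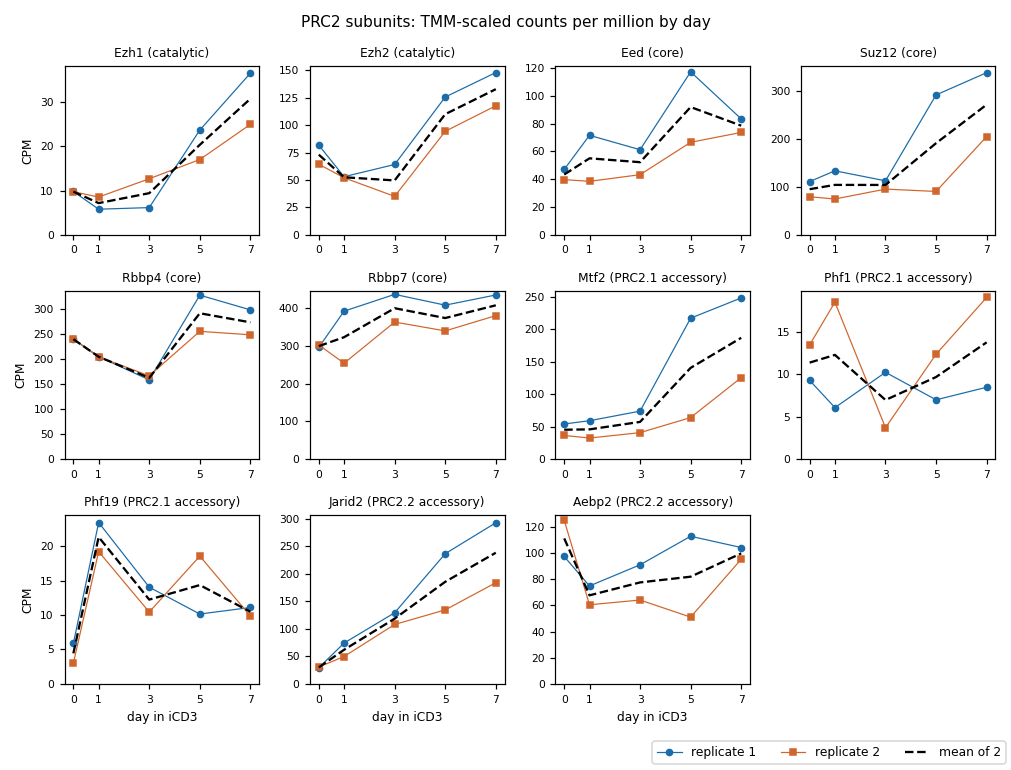
TMM-scaled CPM (vertical axis, a separate linear scale from 0 in each panel) against day in iCD3 (horizontal axis) for the 11 PRC2 genes; circles are replicate 1, squares replicate 2 and the dashed line their mean. Jarid2 climbs from 29.4 and 30.7 CPM at D0 to 293 and 184 at D7, Ezh2 dips at D1 and D3, and Phf19 peaks at D1.

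Neither E3 ligase of PRC1 was called between D0 and D7 (0 of 2 in edgeR, 0 at an unadjusted p below 0.05, and 0 in DESeq2). EdgeR called 17.9% of all tested genes and DESeq2 17.5%. Rnf2, which encodes the main ligase Ring1b, was at 79.3 and 55.4 CPM at D0, 45.0 and 32.7 at D1, 39.2 and 38.0 at D3, 89.1 and 37.1 at D5, and 89.0 and 93.3 at D7. The D1 and D3 libraries were below both D0 libraries and the D7 libraries above them. The log2 change was 0.43 (SE 0.39, adjusted p = 0.505) for D7 against D0 and 1.24 (SE 0.40, adjusted p = 0.0933, and 0.0166 with the block) for D7 against D3. Ring1, encoding Ring1a, was at 14.2 and 12.7 CPM at D0, 9.43 and 11.4 at D1, 15.5 and 13.4 at D3, 6.76 and 12.4 at D5, and 7.61 and 13.8 at D7. The D1 libraries lay below those of D0 and of D3, and D7 overlapped D0. Its D7 against D0 log2 change was -0.38 (SE 0.49, adjusted p = 0.651). By TPM, Rnf2 made up 68.2% ± 5.55 of the pair at D0 and 79.2% ± 13.8 at D7 (SD, n = 2), a difference smaller than the spread at D7.

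In canonical PRC1, Cbx7, Cbx2 and Phc1 rose and Bmi1 fell between D0 and D7, 4 of 11, where 9.15% of all tested genes were called higher and 8.71% lower. With the block 5 rose and 3 fell, which added Pcgf2 and Scml2 as higher and Cbx6 and Phc2 as lower (14.8% of all genes higher and 13.7% lower). Cbx7 was at 8.81 and 6.74 CPM at D0, 8.52 and 12.1 at D1, 7.32 and 8.94 at D3, 58.0 and 25.5 at D5, and 72.7 and 48.6 at D7. The libraries of D0 to D3 overlapped at a low level, and all D5 and D7 libraries were above them. The log2 change was 2.95 (SE 0.47, adjusted p = 0.00197) for D7 against D0, called under each of the 15 other settings, and 0.02 (SE 0.52, adjusted p = 0.992) for D3 against D0. For D7 against D3 it was 2.93 (SE 0.46, adjusted p = 0.0125), and this call ended without D3 replicate 1, D3 replicate 2 or D7 replicate 1 (adjusted p = 0.0746, 0.109 and 0.118). From D3 to D5 it was 2.42 (SE 0.46, adjusted p = 0.093, and 0.01 with the block). Cbx7 shares 100 bases with Apobec3 on the opposite strand, whose mean went from 28.2 CPM at D0 to 74.3 CPM at D7.

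Cbx6, which lies 81.1 kb from Cbx7 on the same strand of chromosome 15, was at 113 and 148 CPM at D0, 86.7 and 105 at D1, 94.2 and 110 at D3, 73.7 and 78.9 at D5, and 64.4 and 88.0 at D7. All D5 and D7 libraries were below both D0 libraries. The D7 against D0 log2 change of Cbx6 was -0.78 (SE 0.29, adjusted p = 0.0856, and 0.0178 with the block). Cbx6 shares 10342 bases with Npcd on the same strand, which had means of 5.31 CPM at D0 and 0.657 CPM at D7. The part of this overlap in the Cbx6 counts was not tested. Cbx2, whose protein compacts chromatin, was at 11.3 and 19.5 CPM at D0 and 32.9 and 40.7 CPM at D7, with no overlap and a log2 change of 1.27 (SE 0.39, adjusted p = 0.0442). Its call ended in 10 of 15 other settings: without D0 replicate 1 or 2 (adjusted p = 0.261 and 0.0656), D1 replicate 1 or 2 (0.0516 and 0.0561), D3 replicate 2 (0.0598) or D7 replicate 1 or 2 (0.117 and 0.163), and with no filter (0.05), DESeq2 (0.0763) and limma on TPM (0.102). Cbx8, 5.04 kb from Cbx2 on chromosome 11, was at 1.96 to 10.5 CPM over the 10 libraries, near the level of 3 counts in several of them.

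The make-up of the Cbx family by TPM turned over between D3 and D7. Cbx6 made up 72.5% ± 3.10 (SD, n = 2) of the sum of Cbx2, Cbx6, Cbx7 and Cbx8 at D0, 64.6% ± 1.44 at D3, 33.4% ± 7.32 at D5 and 23.2% ± 2.06 at D7. Cbx7 made up 6.89% ± 5.90 at D0, 9.82% ± 0.562 at D3, 38.6% ± 12.0 at D5 and 47.4% ± 11.0 at D7. Thus Cbx6 led in all libraries of D0 to D3 and Cbx7 in both of D7. At D5 the replicates differed: Cbx7 was at 47.1% and Cbx6 at 28.3% in replicate 1, and they were at 30.2% and 38.6% in replicate 2. With 1 mean effective length per gene, the mean share of Cbx7 was 35.2% at D5 and 41.8% at D7, and that of Cbx6 was 38.5% and 28.5%.

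Phc1, which polymerises PRC1 through its SAM domain, was at 44.5 and 79.3 CPM at D0, 46.0 and 45.5 at D1, 64.1 and 69.3 at D3, 141 and 103 at D5, and 146 and 160 at D7. The D5 and D7 libraries were above all earlier ones. The D7 against D0 log2 change was 1.31 (SE 0.32, adjusted p = 0.017), and the call ended without D0 replicate 1 (adjusted p = 0.145), D7 replicate 1 (0.0778) or D7 replicate 2 (0.0724). Phc2 was at 193 and 237 CPM at D0 and 87.7 and 122 at D7, with a log2 change of -1.04 (SE 0.45, adjusted p = 0.142, and 0.0139 with the block). Phc2 was also called with no filter (0.0457) and without D5 replicate 1 or 2 (0.0498 and 0.0419). Phc3 had a log2 change of -0.76 (adjusted p = 0.226). By TPM, Phc2 went from 72.3% ± 2.38 of the family at D0 to 39.7% ± 5.80 at D7, and Phc1 from 20.6% ± 0.977 to 55.6% ± 5.76 (SD, n = 2).

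Bmi1, the Pcgf protein of canonical PRC1 known for holding down the Cdkn2a locus in fibroblasts, was at 50.4 and 45.7 CPM at D0, 43.2 and 38.4 at D1, 30.4 and 26.1 at D3, 30.0 and 25.5 at D5, and 23.3 and 27.6 at D7. Every library from D1 on was below both D0 libraries. The D7 against D0 log2 change was -0.93 (SE 0.29, adjusted p = 0.0488), just inside the threshold, and the call ended in 11 of 15 other settings. Those were the fits without D0 replicate 1 or 2 (adjusted p = 0.244 and 0.168), D1 replicate 1 or 2 (0.092 each), D3 replicate 1 or 2 (0.0726 and 0.062) or D7 replicate 1 or 2 (0.299 and 0.15), with RLE scaling (0.052), DESeq2 (0.125) and no filter (0.188). Its paralog Pcgf2 was at 32.8 and 52.4 CPM at D0 and 60.0 and 93.3 CPM at D7, with a log2 change of 0.85 (SE 0.44, adjusted p = 0.221, and 0.0172 with the block). Of the sum of all 6 Pcgf genes by TPM, Bmi1 held 29.1% ± 7.23 at D0 and 8.30% ± 0.845 at D7, and Pcgf2 26.2% ± 9.84 and 44.7% ± 12.8 (SD, n = 2). With 1 mean effective length per gene the D0 share of Bmi1 was 19.4%.

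Scml2 and Scmh1 encode the Scm-domain subunits. Scml2 was at 3.42 and 2.99 CPM at D0, 1.22 and 0 at D1, 2.05 and 0 at D3, 9.90 and 3.09 at D5, and 20.4 and 14.5 at D7, so that most libraries before D7 stood near the level of 3 counts. Both D7 libraries were above all others. The log2 change was 2.43 (SE 0.90, adjusted p = 0.0881, 0.02 with the block and 0.0185 with no filter) for D7 against D0 and 3.70 (SE 0.96, adjusted p = 0.0504, and 0.00573 with the block) for D7 against D3, and the test over all days gave an adjusted p of 0.0275. Scmh1 had a log2 change of -0.29 between D0 and D7 (adjusted p = 0.59).

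**Figure D3:**
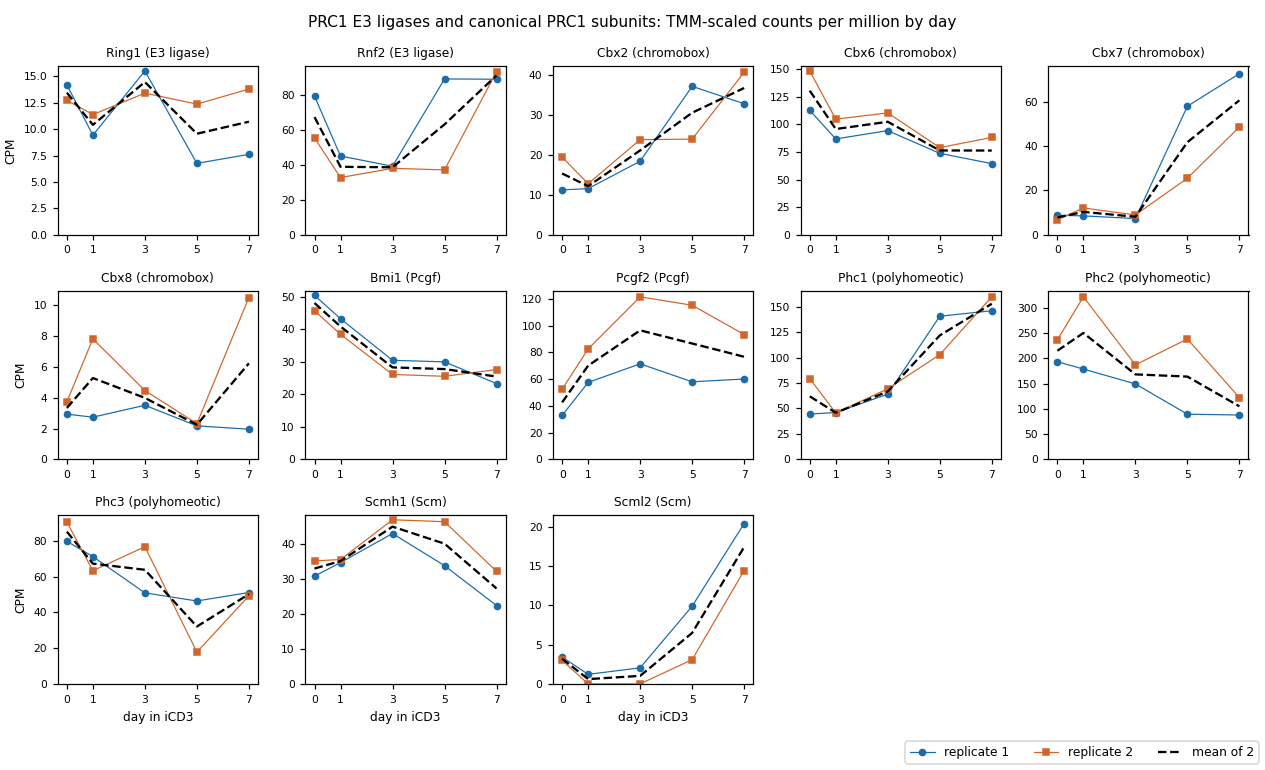
TMM-scaled CPM (vertical axis, a separate linear scale from 0 in each panel) against day in iCD3 (horizontal axis) for the 2 E3 ligases and the 11 canonical PRC1 genes; circles are replicate 1, squares replicate 2 and the dashed line their mean. Cbx7 stays at 6.74 to 12.1 CPM up to D3 and reaches 72.7 and 48.6 CPM at D7, while Bmi1 goes from 50.4 and 45.7 CPM at D0 to 23.3 and 27.6 at D7.

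In variant PRC1, Kdm2b rose and Yaf2 fell between D0 and D7, 2 of 9 (22.2%). This is near the 17.9% of all tested genes called (9.15% higher and 8.71% lower). With the block 2 rose and 2 fell, which added Pcgf6 as higher and Pcgf3 as lower, where 14.8% of all genes were called higher and 13.7% lower. Kdm2b, whose CxxC domain brings variant PRC1 to unmethylated CpG islands, was at 48.9 and 74.8 CPM at D0, 226 and 290 at D1, 155 and 196 at D3, 160 and 152 at D5, and 176 and 193 at D7. All later libraries were above both D0 libraries, and the D1 libraries were the highest. The log2 change was 2.06 (SE 0.31, adjusted p = 0.00389) for D1, 1.51 (SE 0.30, adjusted p = 0.00899) for D3 and 1.58 (SE 0.30, adjusted p = 0.00518) for D7, each against D0. From D1 to D3 it was -0.56 (SE 0.29, adjusted p = 0.677). Without D0 replicate 1 the D1, D3 and D7 calls ended (adjusted p = 0.0689, 0.0953 and 0.0633), and the D3 call also without D3 replicate 2 (0.056). Kdm2b shares 627 bases with Rnf34 on the opposite strand, which had means of 28.6 CPM at D0, 38.0 at D1 and 33.2 at D7.

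Rybp and Yaf2 are alternative subunits that stimulate the ligase. Yaf2 was at 69.0 and 74.8 CPM at D0, 42.0 and 44.8 at D1, 33.9 and 37.3 at D3, 24.6 and 38.7 at D5, and 24.1 and 34.8 at D7. All libraries from D1 on were below both D0 libraries. Its D7 against D0 log2 change was -1.30 (SE 0.33, adjusted p = 0.019), and the call ended without D0 replicate 1, D0 replicate 2 or D7 replicate 1 (adjusted p = 0.0879, 0.114 and 0.194). Rybp was at 79.8 and 74.8 CPM at D0 and 143 and 108 CPM at D7, without overlap, and its log2 change of 0.70 (SE 0.34) had an adjusted p of 0.191. By TPM, Yaf2 held 69.0% ± 2.51 of the pair at D0, 61.1% ± 2.78 at D1, 43.8% ± 4.19 at D3 and 31.4% ± 0.945 at D7 (SD, n = 2). The larger share was thus Yaf2 in both libraries of D0 and of D1, and Rybp in both of D3 and of D7.

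Of the Pcgf genes of variant PRC1, edgeR with all libraries and no block called none between D0 and D7. Pcgf6, which pairs with L3mbtl2 at germline genes, was at 19.6 and 8.23 CPM at D0, 55.3 and 30.2 at D5, and 40.2 and 27.6 at D7, with a D7 against D0 log2 change of 1.26 (SE 0.46, adjusted p = 0.086, and 0.00967 with the block). It was also called with no filter (0.0418) and without D5 replicate 1 (0.0476). Pcgf3 was at 172 and 192 CPM at D0 and 110 and 103 at D7, with a log2 change of -0.77 (SE 0.30, adjusted p = 0.0996, and 0.0429 with the block), and it was also called without D5 replicate 2 (0.0412). Pcgf1, the partner of Kdm2b and Bcor, was at 2.99 to 7.83 CPM over the 10 libraries, and Pcgf5 at 5.22 to 26.9. Pcgf5 had a D7 against D3 log2 change of 1.24 (adjusted p = 0.156, and 0.0352 with the block). L3mbtl2 had a log2 change of 0.58 (adjusted p = 0.237) and the corepressor Bcor one of 0.00 (adjusted p = 0.999). Bcor was at 65.1 and 62.9 CPM at D0, 28.7 and 38.0 at D3 and 58.1 and 70.3 at D7, so that both D3 libraries were below those of D0 and of D7. Its D7 against D3 log2 change was 0.95 (adjusted p = 0.119, and 0.0465 with the block).

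**Figure D4:**
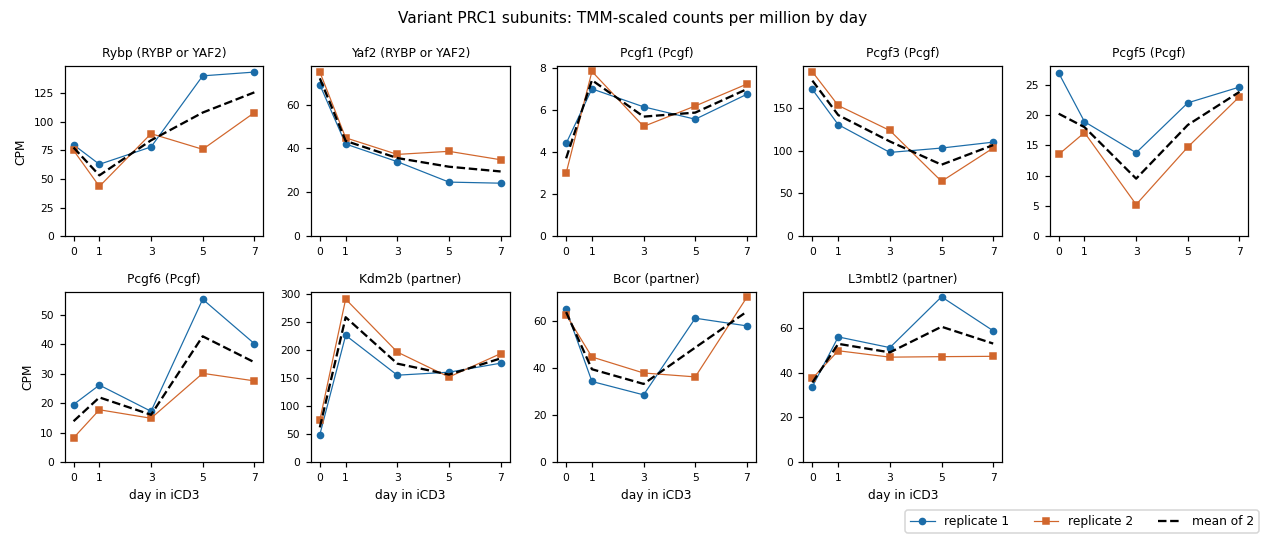
TMM-scaled CPM (vertical axis, a separate linear scale from 0 in each panel) against day in iCD3 (horizontal axis) for the 9 variant PRC1 genes; circles are replicate 1, squares replicate 2 and the dashed line their mean. Kdm2b goes from 48.9 and 74.8 CPM at D0 to 226 and 290 at D1, and Yaf2 declines from 69.0 and 74.8 CPM at D0.

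**Figure D5:**
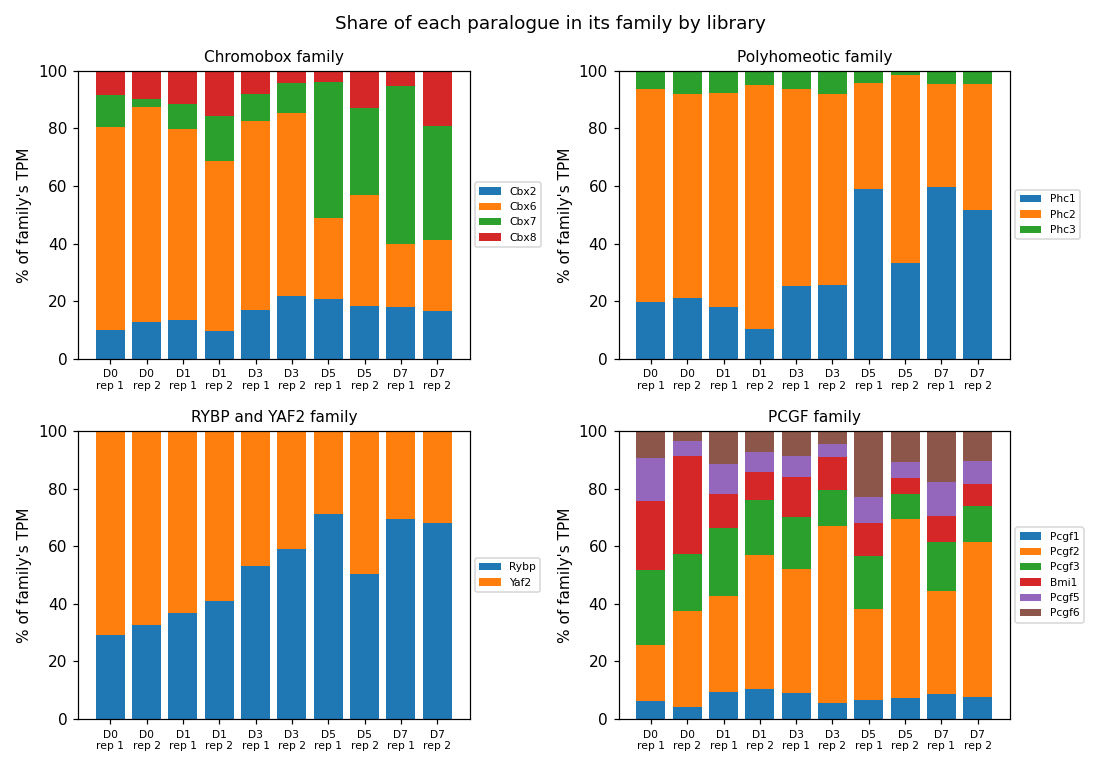
Share of each paralog in its family's summed TPM (vertical axis, percent) in each of the 10 libraries (horizontal axis, by day and replicate) for the Cbx, Phc, Rybp and Yaf2, and Pcgf families. Between D0 and D7 the mean share of Cbx6 goes from 72.5% to 23.2%, of Phc2 from 72.3% to 39.7% and of Yaf2 from 69.0% to 31.4%.

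Other genes of the Polycomb system were taken from 3 further lists. Of 22 tested partners, 2 rose and 0 fell between D0 and D7, where 9.15% of all tested genes were called higher and 8.71% lower. Their median log2 change was 0.38, beside 0.06 over all tested genes. With the block 5 rose and 2 fell, where 14.8% of all genes were called higher and 13.7% lower. Epop, an Elongin-binding partner of PRC2, was at 9.30 and 28.4 CPM at D0, 62.9 and 42.5 at D3, 144 and 201 at D5, and 102 and 110 at D7, with a log2 change of 2.53 (SE 0.46, adjusted p = 0.00373). All its libraries from D3 on were above those of D0. Wdr5, shared by the Pcgf6 form of PRC1 and by activating complexes, was at 72.4 and 74.8 CPM at D0 and 169 and 147 at D7, with a log2 change of 1.10 (SE 0.28, adjusted p = 0.0187) and no overlap. Of 10 genes of PR-DUB, the complex that removes ubiquitin from histone H2A, edgeR called 0 (1 at an unadjusted p below 0.05). It called 17.9% of all tested genes. DESeq2 and the block each called 1, Foxk1 (17.5% and 28.5% of all genes called). Foxk1 had a log2 change of -1.19 (SE 0.38, adjusted p = 0.0549 in edgeR, and 0.0142 with the block). Of the 2 demethylases that remove the PRC2 mark edgeR called 0 (1 at an unadjusted p below 0.05), beside the same 17.9% of all genes. DESeq2 (17.5% of all genes) and the block (28.5%) each called Kdm6b. Kdm6b was at 51.4 and 81.6 CPM at D0 and 116 and 152 at D7 (log2 change 1.02, SE 0.34, adjusted p = 0.0644 in edgeR, and 0.0133 with the block).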

How the data were processed

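RNA was sequenced in 10 libraries, 2 per day. The submitters' processing notes name Bowtie2, RSEM, bcl2fastq and build mm10, without versions or an annotation release, and the labels name 2 library kits without assigning them to libraries. The deposited expected counts per gene are estimates by the authors, per the file headers, and were rounded to whole numbers. The deposited TPM and effective lengths are the authors' values, per the file headers. Effective lengths implied mean fragments of 134.8 to 157.5 bases in replicate 1 libraries and 197.8 to 203.1 in replicate 2 libraries. Gene IDs were named with GENCODE M21 (54723 of 54752).

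Counts were tested with edgeR 4.0.16 in R 4.3.3: TMM scaling, genes kept by a minimum count of 10, 1 term per day over all 10 libraries, the quasi-likelihood test, and Benjamini-Hochberg adjustment over 12752 genes with a threshold of 0.05. The SE of a log2 change is its size over the root of its F value. CPM are TMM-scaled. Alternatives were a replicate block, RLE scaling, no filter, DESeq2 1.42.0, limma 3.58.1 on log2(TPM + 1), and each library left out. Shares used TPM. The script was tested on simulated data.

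Replicate numbers come from the sample titles. Deviations of same-numbered libraries from their day means correlated in all 10 pairs of days (r 0.27 to 0.44). The replicate number was therefore used as a block in an alternative fit. The replicate 1 and replicate 2 libraries also differed as sets, in fragment length (134.8 to 157.5 against 197.8 to 203.1 bases) and in depth. A difference between the sets would by itself give a positive r, so r does not show that same-numbered libraries share a culture. Nothing says that the 2 libraries came from separate cultures, and p-values then measure only the spread between these libraries, which may be technical. Members and gene lists were chosen with earlier results of these data known. Full statistics are given for members called in any comparison and for Ezh2, Ezh1, Rnf2, Ring1 and Bmi1, and for called partners the 2 largest rises and falls from D0 to D7; Foxk1, Kdm6b and members called only with the block were added after their values were seen.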

Additional observations from a re-analysis of the deposited data

How the results depend on the processing

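The number of Polycomb genes called depended on the setting. With the replicate block it was 18 for D7 against D0, 13 for D7 against D3, 5 for D3 against D0, 4 for D5 against D3 and 21 over all days; the block ended none of the calls made without it. For D5 against D3 it was 2 with no filter (1.66% of all tested genes called) and 1 with DESeq2 (1.18%), for D7 against D3 it was 8 (6.11%) and 6 (7.77%), and with limma on log2(TPM + 1) it was 1 for D1 against D0 (3.71%) and 5 over all days (13.4%). Leaving out 1 library gave 2 to 12 calls for D7 against D0 (6.53% to 23% of all tested genes), 0 to 2 for D1 against D0 (0.932% to 7%), 0 to 5 for D3 against D0 (4.21% to 16.1%), 0 to 1 for D5 against D3 (0% to 2.06%), 0 to 9 for D7 against D3 (0.0358% to 11.8%) and 3 to 16 over all days (8.96% to 27%); the lone library of a day was then assumed to vary like those of other days. The D7 against D0 log2 changes that turned sign all belonged to genes that were not called: Phf19 -0.48 (limma on TPM), Bcor 0.016 (RLE), 0.028 (no filter), 0.016 (DESeq2), 0.22 (limma on TPM) and -0.10 to 0.14 with a library left out, and, with a library left out, Phf1 -0.36 to 0.76, Cbx8 -0.70 to 1.66, Aebp2 -0.27 to 0.075, Pcgf5 -0.14 to 0.87 and Ring1 -0.78 to 0.035. These turned without D7 replicate 2 (Phf1 and Cbx8), D0 replicate 2 (Aebp2 and Pcgf5) and D7 replicate 1 (Ring1). With 1 mean effective length per gene, an alternative chosen after seeing the data, the D0 shares were 19.4% for Bmi1, 76.0% for Rnf2, 34.1% for Rybp and 71.9% for Mtf2, and the D7 share was 66.9% for Rybp. The causes were not tested. Depth limits the genes near 3 counts (Scml2, Cbx8, Pcgf1 and Phf19).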

Other observations

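The effective length of a gene is a mean over the transcripts that the authors' estimate gave it, and where it moves between days, counts and per-length levels can differ. The ratio of the highest to the lowest daily mean effective length was largest for Phf19 (3.49), Cbx8 (3.21), Ring1 (2.18), Bmi1 (2.09) and Cbx7 (1.98) among the 33 Polycomb genes. For Phf19 the length was 1420 and 561 bases in the D0 libraries and 3362 and 3541 at D7. Its TPM was 5.96 and 7.38 at D0, 11.8 and 8.49 at D1, and 5.04 and 3.95 at D7, so that both D7 libraries lay below those of D0 by TPM and above them by CPM. For Ring1 it was 958 and 599 bases at D0 and 1276 and 1836 at D1. Its TPM was 21.4 and 29.4 at D0 and 10.5 and 8.36 at D1, so that D1 was below D0 by TPM as by CPM, and at D7 the TPM was 7.25 and 35.2, on either side of D0. For Bmi1 the effective length was 1921 and 1035 bases at D0 and 2257 and 2551 at D7. Its TPM was 37.8 and 61.0 at D0 and 15.8 and 15.3 at D7, lower in all D7 libraries by both measures. Cbx7 had 2616 and 5854 bases at D0 and 2493 and 1794 at D7, and its TPM was 4.85 and 1.59 at D0 and 44.5 and 38.4 at D7, higher by both measures. Cbx8, near the level of 3 counts in several libraries, had a TPM of 3.75 and 5.80 at D0 and 4.15 and 18.7 at D7, which overlapped. Which transcripts lie behind these lengths was not tested.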
